A study of Mus musculus with 6 samples.

Results

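The BCL2 family decides whether a cell keeps its mitochondria intact or dies by apoptosis. Its prosurvival proteins (BCL2, BCL-XL, MCL1) hold the effectors BAX and BAK in check, and the BH3-only proteins (BIM, BID, PUMA, BAD, BMF) relieve that restraint when a cell is stressed or loses growth factors. In the platelet lineage BCL-XL restrains BAK and thereby sets how long platelets live, and megakaryocytes need BCL-XL or MCL1 to survive. The members described here were 10 genes chosen by name, Bcl2, Bcl2l1, Mcl1, Bax, Bak1, Bcl2l11, Bid, Bbc3, Bad and Bmf, through every probe set that the platform annotation assigned to 1 of them alone. That gave 31 of 45037 probe sets, which covered 9 of 18193 genes. Bax was not analysed here. A probe set is a group of short oligonucleotides on the array that reads 1 stretch of a transcript, and a gene can have several. The family was put forward with the Bcl2 result of this same comparison known, so the differences and p-values below describe the members and are not independent evidence.

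The 6 arrays measured RNA of mouse megakaryocytes, the large cells that shed platelets, grown from fetal liver in medium with thrombopoietin and enriched on an albumin gradient. All came from mice of mixed C57BL/6xSv129 background. The control group joined 2 FOG1+/- cultures (replicates 1 and 2) with 1 FOG1+/+ culture (replicate 3), and the 3 cultures of the other group were labelled FOG1-/- ki/ki, written FOG1 ki/ki below. FOG1 is a cofactor of GATA transcription factors. The labels do not say what the knocked-in allele carries, nor whether embryos were pooled. The comparison asks how the RNA of these megakaryocyte cultures differs between the FOG1 ki/ki and the control label.

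The arrays were scaled to 1 target, and between 52.8% and 58.5% of probe sets read under 16 on each array, near background. Zfpm1, which encodes FOG1, read 430, 862 and 1137 in control replicates 1, 2 and 3 and 480, 868 and 1274 in FOG1 ki/ki, so its levels followed the replicate number and not the group. Transcripts of a knocked-in allele may be read too, so these values do not check the labels. Megakaryocyte markers were bright on all arrays, with a summed signal of 8 measured markers of 16908 to 21907 in controls and 15579 to 21720 in FOG1 ki/ki. On average 8 of 8 were lower in FOG1 ki/ki (median log2 difference -0.15), the furthest being Gp1bb at -0.52. Markers of other cells were present too. The summed signal of 9 mast cell and basophil markers was 3918, 4107 and 727 in control replicates 1, 2 and 3 and 8063, 7529 and 6231 in FOG1 ki/ki, with 9 of 9 higher in FOG1 ki/ki on average. That of 10 monocyte and macrophage markers was 10515, 14265 and 8246 in controls and 3946, 10940 and 7540 in FOG1 ki/ki, with 10 of 10 lower. The 8 fibroblast markers, all lower in FOG1 ki/ki on average, summed to 1371, 6374 and 206 in controls and 927, 2681 and 134 in FOG1 ki/ki. Among 6 erythroid markers Alas2, Slc4a1 and Rhag, and among 7 lymphoid markers Cd3e, Cd3g and Rag1, stayed under 16 on every array. The erythroid sums were 249 to 813 in controls and 287 to 475 in FOG1 ki/ki, and the lymphoid sums 536 to 1321 and 814 to 1374. These sums hide opposite differences of single markers. Klf1 read 43.7, 20.1 and 3.04 in controls and 101, 162 and 78.7 in FOG1 ki/ki, and Nkg7 205, 273 and 34.7 against 686, 645 and 486, both without overlap, while Epor differed by -0.75 and Il7r by -1.24 on the log2 scale, lower in each of the 3 pairs. Klf1, Nkg7, Epor, Il7r and Gp1bb did not pass the test across all genes. The mast cell marker Ms4a2 read 102, 62.9 and 13.3 in controls and 704, 564 and 189 in FOG1 ki/ki. It did not pass in the main fit (limma adjusted p = 0.255) but passed with the replicate number as a block (0.0090). In such bulk samples, fewer cells of a type and less RNA per cell cannot be told apart.

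Among the family Bcl2 rose in FOG1 ki/ki, and no other member passed the test. Their log2 differences ran from -0.91 (Bcl2l11), -0.48 (Bcl2l1) and -0.38 (Bbc3) to 0.17 (Bak1). Values were analysed as log2(signal + 16) with limma across all genes, each gene by its brightest probe set, after the dimmer 50% of probe sets had been left out. Of the 9 members tested 1 was called at an adjusted p under 0.05, Bcl2, against 0.151% of all 11260 genes, and nothing is read from that count because Bcl2 was known when the family was chosen. With the replicate number as a block, 1 of 9 was again called, Bcl2, against 0.835% of all genes. The median difference of the 9 was -0.01, beside 0.03 over all genes tested.

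**Figure D1:**
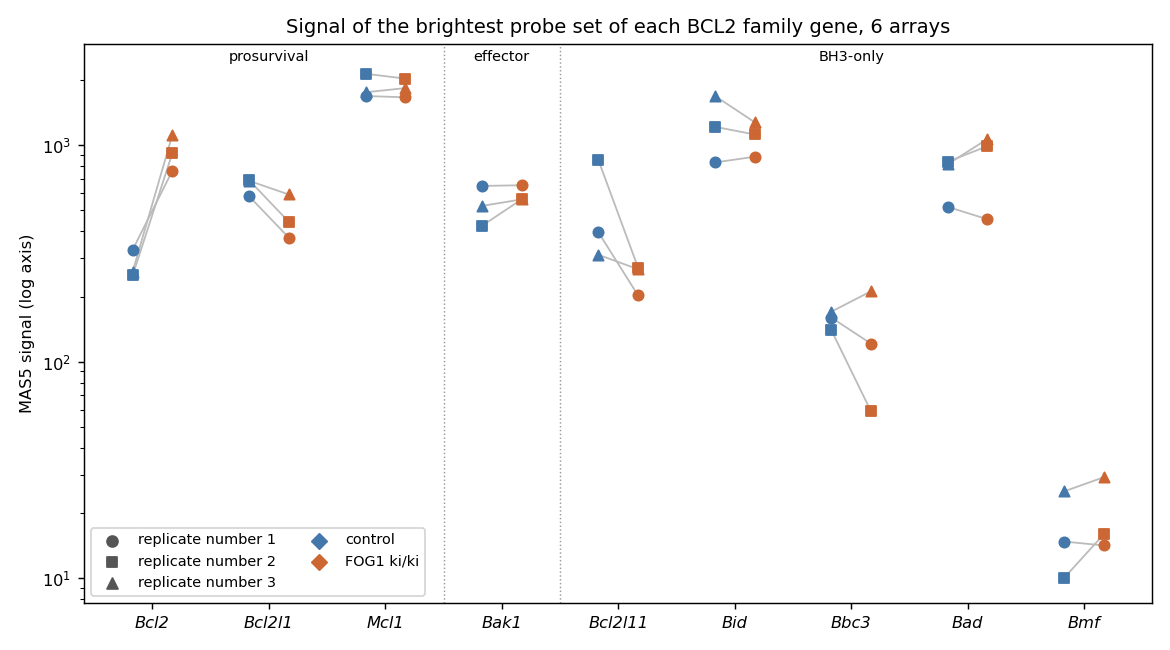
MAS5 signal (log axis) of the brightest probe set of each of 9 BCL2 family genes on the 6 arrays. Blue points are controls, orange points FOG1 ki/ki, the shape gives the replicate number and grey lines join equal numbers. Bcl2 lay between 250 and 329 in controls and between 761 and 1113 in FOG1 ki/ki, while the lines of Mcl1 are nearly flat.

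Bcl2, the founding prosurvival member, was the family's furthest from control. Its brightest probe set (1457687_at) read 329, 250 and 261 in control replicates 1, 2 and 3 and 761, 918 and 1113 in FOG1 ki/ki. Every FOG1 ki/ki array was thus above every control, and for this probe set the single FOG1+/+ control lay between the FOG1+/- ones. That control is also the only control with replicate number 3, so control genotype and replicate number cannot be told apart. The group means were 280 ± 42.7 and 931 ± 176 (SD, n = 3 each), which is 3.32-fold. Bcl2 rose by 1.67 on the log2 scale (SE 0.22, limma adjusted p = 0.047), and by 1.17, 1.81 and 2.03 within replicate numbers 1, 2 and 3. The size hardly depended on any single array: with any 1 of the 6 arrays left out the difference was 1.54 to 1.80. The limma adjusted p was then 0.081 to 0.233, past the threshold in no case. Those fits called only 1 or 2 of all genes, against 17 with all arrays, so losing the call was not particular to Bcl2. The call was also lost with a pseudocount of 1 (adjusted p = 0.0606), with median centring (0.0903), with dim probe sets kept (0.0881) and with the mean of the gene's probe sets (0.246).

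The remaining 4 Bcl2 probe sets were dimmer and differed in the same direction on average. Probe set 1437122_at read 127, 26.4 and 49.0 in controls and 330, 162 and 247 in FOG1 ki/ki, a log2 difference of 1.79 (SE 0.48). Probe set 1422938_at read 85.9, 36.4 and 27.8 against 129, 109 and 115, a log2 difference of 1.11 (SE 0.37). In both the groups did not overlap, and control replicate 1 was the highest control. The faintest probe sets were close to background. Probe set 1440770_at read 1.26 to 12.4 in controls and 13.3 to 61.6 in FOG1 ki/ki, and 1443837_x_at read 3.87 to 7.4 and 1.96 to 54.4, where FOG1 ki/ki replicate 3 was below every control. Probe sets of a gene read the same RNA and are not replicates. The mast cell marker sum stood higher in every FOG1 ki/ki array, as the brightest Bcl2 probe set did. Fcer1a was the brightest marker in that sum and read 3912 in FOG1 ki/ki replicate 3. Together with Gata2 it made up most of the sum of 6231 on that array. On that array Cpa3, Mcpt8 and Hdc read 170, 99.4 and 19.6, below control replicates 1 and 2. Control replicate 3 read lower still for these genes, at 68.2, 24.9 and 17.8. Ms4a2, Kit and Gata2 read 189, 47.9 and 1767 there, above every control, and Cma1 and Tpsb2 lay among the controls. Among the 3 controls the mast cell marker sum ranged from 727 to 4107 and the brightest Bcl2 probe set from 250 to 329. That probe set read 261 on the array with the sum of 727. The faint 1440770_at and 1443837_x_at were lowest in replicate 3 of both groups, as the sum was. Whether mast cells contribute to the Bcl2 difference was not tested.

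Bcl2l11 encodes BIM, a BH3-only protein that BCL2, BCL-XL and MCL1 all bind. Its brightest probe set (1435448_at) read 396, 854 and 312 in control replicates 1, 2 and 3 and 202, 272 and 268 in FOG1 ki/ki. The groups did not overlap, with control replicate 2 far above the other controls and the replicate 3 arrays close together. The means were 520 ± 292 and 247 ± 39.0 (SD, n = 3 each), and the log2 difference was -0.91 with an SE of 0.37 (limma adjusted p = 0.705, or 0.164 with the replicate block), so Bcl2l11 did not pass. Without control replicate 2 the difference was -0.49.

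The other Bcl2l11 probe sets also read lower. Probe set 1456005_a_at read 320, 328 and 189 in controls and 146, 126 and 98.8 in FOG1 ki/ki, again with no overlap, a log2 difference of -1.05 (SE 0.28). Probe set 1456006_at read 61.2, 240 and 55.3 against 20.7, 41.4 and 13.8, with no overlap and a log2 difference of -1.49 (SE 0.56). The dim 1435449_at and 1426334_a_at differed by -1.01 and -0.51, and their groups overlapped. In all 5 Bcl2l11 probe sets FOG1 ki/ki was below control within each of the 3 replicate numbers. Of the 336 genes with 5 or more probe sets above that filter on dim probe sets, 5.95% had every pair difference of every probe set in 1 direction, and for 39% all mean differences went 1 way. The macrophage and fibroblast marker sums were both highest in control replicate 2, where the brightest Bcl2l11 probe set, 1456006_at and 1435449_at were highest. Probe set 1456005_a_at was nearly level there with control replicate 1 (328 and 320). The dim 1426334_a_at was highest in control replicate 1 (32.4, against 25.8 in control replicate 2). From control to FOG1 ki/ki the macrophage sum went from 10515 to 3946 in pair 1, from 14265 to 10940 in pair 2 and from 8246 to 7540 in pair 3, and the fibroblast sum from 1371 to 927, from 6374 to 2681 and from 206 to 134. The brightest Bcl2l11 probe set differed by -0.92, -1.59 and -0.21 in these pairs, and the 5 probe sets ranged from -1.07 to -0.68, from -2.15 to -0.55 and from -1.26 to -0.09. Whether these cells contribute to the Bcl2l11 signal was not tested.

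The promoters of these furthest members are printed because FOG1 acts through GATA factors, whose core motif is GATA. The 250 bases before the RefSeq start are given 5′ to 3′ on the gene's strand (GRCm38.p6), for Bcl2 chr1:106714291-106714540 (minus strand) and for Bcl2l11 chr2:128125788-128126037 (plus strand, the upstream one of its windows), with the GC box GGGCGG or its reverse complement CCGCCC in capitals.
Bcl2: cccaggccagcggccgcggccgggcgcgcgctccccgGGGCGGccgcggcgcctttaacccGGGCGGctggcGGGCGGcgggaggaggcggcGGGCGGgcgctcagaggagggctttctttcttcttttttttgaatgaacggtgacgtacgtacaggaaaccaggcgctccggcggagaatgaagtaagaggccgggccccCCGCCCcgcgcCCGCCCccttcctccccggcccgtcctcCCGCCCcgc
Bcl2l11: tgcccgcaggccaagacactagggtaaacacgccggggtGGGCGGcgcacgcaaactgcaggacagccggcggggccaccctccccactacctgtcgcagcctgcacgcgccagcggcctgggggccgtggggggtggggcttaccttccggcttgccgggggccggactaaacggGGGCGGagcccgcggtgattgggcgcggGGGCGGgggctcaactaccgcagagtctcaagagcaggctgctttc

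The letters GATA, searched on both strands (TATC on the reverse) in windows of 300 bases that also hold the 50 bases after the start, were in neither of these windows. They were in 3 of 18 windows of the 10 genes, 1 each of Bcl2l1, Bid and Bax, and in 57.9% of all 32851 promoter windows. The GC box was found 7 times for Bcl2 and 3 times for Bcl2l11, in 11 of the 18 windows and in 35.7% of all. Overlapping matches were each counted, and 0 GATA matches in the 18 windows overlapped a GC box. The GC content was 76% and 71%, with a median of 52.7% over all windows. A match is a run of letters and not a bound site, and these windows do not cover distant elements.

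Bcl2l1 encodes BCL-XL, the main survival protein of platelets, and its probe sets differed among themselves. The brightest (1420888_at) read 582, 690 and 686 in control replicates 1, 2 and 3 and 375, 444 and 593 in FOG1 ki/ki. FOG1 ki/ki was lower within every replicate number, while FOG1 ki/ki replicate 3 was just above control replicate 1, so the groups overlapped. The means were 653 ± 61.4 and 471 ± 112 (SD, n = 3 each), and the log2 difference was -0.48 with an SE of 0.22 (limma adjusted p = 0.801, or 0.154 with the replicate block), which did not pass.

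The probe sets of Bcl2l1 next in brightness followed the replicate number more than the group. Probe set 1426191_a_at read 538, 240 and 124 in control replicates 1, 2 and 3 and 443, 147 and 23.4 in FOG1 ki/ki. Probe set 1420887_a_at read 424, 145 and 112 in controls and 358, 120 and 24.4 in FOG1 ki/ki. In both, FOG1 ki/ki was below control within each replicate number, most in replicate 3, where the log2 differences were -1.83 and -1.66. The fourth, 1426050_at, read 2.10 or less on every array and was left out as dim.

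Mcl1 encodes the short-lived prosurvival protein MCL1 and was bright on every array. Its brightest probe set (1437527_x_at) read 1693, 2146 and 1762 in control replicates 1, 2 and 3 and 1670, 2038 and 1841 in FOG1 ki/ki, with overlapping groups. The groups differed by -0.01 on the log2 scale with an SE of 0.14 (limma adjusted p = 0.999), with a sign that changed under median centring (0.01). All 6 Mcl1 probe sets overlapped between groups and differed by -0.19 to 0.08.

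Bak1 encodes BAK, an effector that permeabilizes the outer mitochondrial membrane. Its brighter probe set (1418991_at) read 650, 425 and 525 in controls and 654, 563 and 563 in FOG1 ki/ki, which differ by 0.17 on the log2 scale with an SE of 0.21 (limma adjusted p = 0.999). The groups overlapped, with FOG1 ki/ki replicate 1 just above the highest control and the other two among the controls. The dimmer Bak1 probe set followed the replicate number, at 71.1, 15.9 and 7.04 in controls and 81.4, 16.9 and 6.28 in FOG1 ki/ki.

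The other BH3-only genes overlapped between groups in every probe set. Bid, whose protein caspase-8 cleaves to link death receptors to mitochondria, read 834, 1220 and 1695 in control replicates 1, 2 and 3 and 886, 1124 and 1282 in FOG1 ki/ki, a log2 change of -0.14 with an SE of 0.27. Bad, a BH3-only protein silenced by phosphorylation downstream of growth factors, read 519, 841 and 819 in controls and 456, 993 and 1070 in FOG1 ki/ki, a log2 change of 0.14 with an SE of 0.35. Their other probe sets overlapped too, with Bid at 34.7 to 87.4 (1448560_at) and 12.2 to 26.1 (1447873_x_at) and Bad at 217 to 364 (1416583_at) over the 6 arrays. In both genes the spread between replicate numbers was larger than the difference between groups.

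Bbc3, which encodes the p53-induced PUMA, read 160, 140 and 170 in controls and 121, 58.9 and 211 in FOG1 ki/ki, a log2 change of -0.38 with an SE of 0.41. The FOG1 ki/ki arrays lay on both sides of the tight controls. Bmf, whose protein binds dynein light chains, was near background, at 14.7, 10 and 25.1 in controls and 14.1, 15.9 and 29.2 in FOG1 ki/ki, a log2 change of 0.13 with an SE of 0.29. Another Bmf probe set (1454880_s_at) read 10.1 to 18.9 on the 5 other arrays and 53.6 in FOG1 ki/ki replicate 3, and the third (1422995_at) read 0.40 to 3.6 and was left out as dim. The limma adjusted p of Bid, Bad, Bbc3 and Bmf was 0.999 in each case, and the sign of each changed when 1 array was left out.

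**Figure D2:**
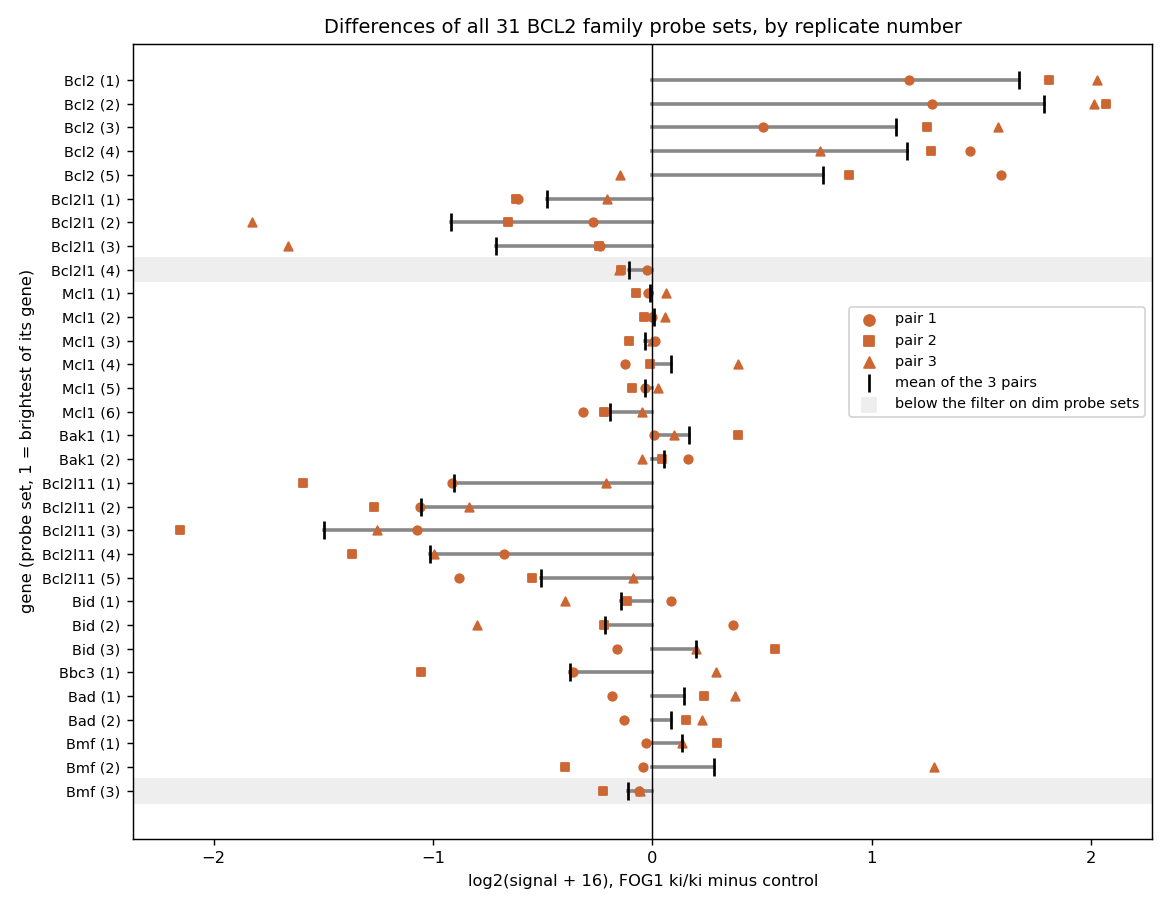
Log2 difference (signal + 16, FOG1 ki/ki minus control) of all 31 BCL2 family probe sets. Orange points are the differences within replicate numbers 1 (circle), 2 (square) and 3 (triangle), black ticks their mean, and grey bands mark the probe sets left out as dim. All 5 Bcl2 means lie right of 0, all 5 Bcl2l11 and all 4 Bcl2l1 means left of it, and the 6 Mcl1 means lie between -0.19 and 0.08.

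Over all 31 probe sets 14 differed upward and 17 downward. The groups did not overlap for 7 of the 29 above the filter, 4 of Bcl2 and 3 of Bcl2l11, against 10.2% of all such probe sets. For genes by their brightest probe set, the groups did not overlap for 2 of 9, Bcl2 and Bcl2l11, against 11.3% of the genes tested. For 14 of the 29, all 3 differences within replicate numbers went the same way, against 40.3% of all such probe sets. In a limma fit over all 45037 probe sets 0 of the 31 were called, against 0.00222% of all. At an unadjusted p under 0.05 there were 8 of 31, against 5.06% of all, and 10 with the replicate block, against 9.87%. These counts come from the comparison that put the family forward, and probe sets of 1 gene are not independent.

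Other genes of the pathway showed no call. In the same limma fit 0.151% of all 11260 genes were called and 6.69% had an unadjusted p under 0.05. With so small a share called, 0 calls in lists this short say little. Of 14 other BCL2 family genes 7 were tested, 4 above and 3 below control (median log2 difference 0.05), and limma called 0, with 0 at an unadjusted p under 0.05. By unadjusted p the first were Bok, an effector-like member (-0.41), Bcl2l12 (0.23) and the mitophagy receptor gene Bnip3 (-0.21). Of 16 tested genes of the mitochondrial death machinery, which runs from cytochrome c through APAF1 to the caspases and their inhibitors, limma called 0 and 1 had an unadjusted p under 0.05 (median 0.03).

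That gene was Birc2, which encodes the inhibitor of apoptosis protein cIAP1. It read 503, 773 and 831 in control replicates 1, 2 and 3 and 429, 271 and 439 in FOG1 ki/ki, without overlap (a log2 change of -0.86 with an SE of 0.28, limma adjusted p = 0.503). Xiap, the direct caspase inhibitor, differed by 0.30 and the executioner caspase gene Casp6 by -0.66, both with overlapping groups.

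Among 22 tested regulators of BCL2 family proteins limma called 0, and 2 of them had an unadjusted p under 0.05, which 6.69% of all genes had (median -0.03). Mdm2, the ubiquitin ligase of p53, read 1345, 1702 and 1527 in controls and 1140, 1116 and 1215 in FOG1 ki/ki (a log2 change of -0.39, limma adjusted p = 0.593). Stat3, a transcription factor of cytokine signalling, read 582, 768 and 636 against 529, 454 and 371 (log2 difference -0.54, limma adjusted p = 0.645). The groups did not overlap for either gene. Myc, which sensitizes cells to apoptosis, differed by 0.75 with overlapping groups. With the replicate block limma called 0 genes of the 3 lists, against 0.835% of all genes. Before adjustment 8 of 45 were under 0.05, as were 18.4% of the 11260 genes.

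**Figure D3:**
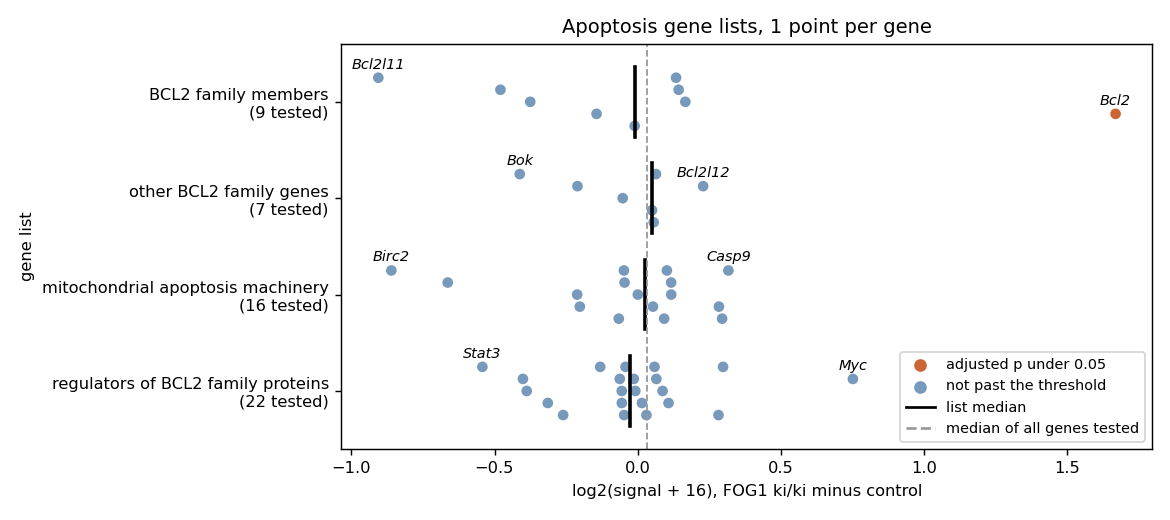
Log2 difference (signal + 16, FOG1 ki/ki minus control) of each tested gene of 4 apoptosis gene lists, 1 point per gene. Black lines are list medians, between -0.03 and 0.05, the dashed line is the median of all 11260 genes tested (0.03), and the orange point, Bcl2 at 1.67, is the only one with a limma adjusted p under 0.05.

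The genes whose profile over the 6 arrays was most like that of the brightest Bcl2 probe set were found by the root mean square distance between centred log2 values, among 11259 other genes. They were Syde2 (distance 0.18), Tbc1d24 (0.20) and Efnb1 (0.22), the gene of the membrane ligand ephrin-B1. Syde2 read 115, 93.6 and 78.1 in control replicates 1, 2 and 3 and 380, 396 and 489 in FOG1 ki/ki. Tbc1d24 read 323, 331 and 261 against 783, 1049 and 917. Efnb1 read 84.1, 55.5 and 52.2 against 126, 178 and 264. In each the groups did not overlap, and they were selected for likeness to Bcl2.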

How the data were processed

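The values the authors deposited were linear array intensities, 1 for each probe set, and MAS5 is the tool that the submitters' processing notes name. A version and a genome build were not given in the sources used here. The 2% trimmed mean of each column was 150.0. Replicates 1 and 2 of both groups had been rounded to 1 decimal and replicate 3 not. With scaled signals a shift in total RNA per cell goes unseen, MAS5 values are noisy near background, and the number of arrays limits the precision. The labels call the samples biological replicates.

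The analysis used log2(signal + 16), a scale that understates changes of dim genes. After leaving out 64 control probe sets and the lower 50% by mean, 11260 genes remained, each represented by the brightest probe set that names no other gene. The groups were compared with limma 3.58.1 (R 4.3.3), using lmFit and trended eBayes. P-values were adjusted by Benjamini-Hochberg over all genes, with a threshold of 0.05. A second limma fit covered all 45037 probe sets without a filter. Tables and plots used Python 3.11.15, pandas 2.3.3, numpy 2.4.6 and matplotlib 3.10.9. The fits were also run on simulated arrays that had no replicate-number effect, so that run does not cover the pairing described below.

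The replicate numbers 1 to 3 occur in both groups. Across probe sets, the deviations of equally numbered arrays from their group means correlated at 0.400, 0.611 and 0.571 and those of different numbers at 0.0181 or lower, which is partly built in because deviations within a group sum to 0. The numbers were therefore read as pairing the arrays. The fit without the block stayed the main one, so its SEs and p-values include the spread between replicate numbers. With the block limma called 94 genes instead of 17. The SE fell from 0.22 to 0.19 for Bcl2 and from 0.27 to 0.12 for Bid. All fits with arrays left out were run without the block.

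The members, gene lists and tests were chosen with earlier results of these data known. Named were all members, Zfpm1, single cell type markers, for each other apoptosis list up to 3 genes with the smallest unadjusted p, and the 3 profiles nearest to Bcl2. The promoter sequences are RefSeq's, GRCm38.p6, matched by symbol for 10 of 10 genes. Genes of the other lists to which the annotation used here assigned no probe set of their own were not analysed here.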

Additional observations from a re-analysis of the deposited data

How the results depend on the processing

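The Bcl2 difference kept its direction under every alternative run, and its call did not. It was called with a pseudocount of 64 (1.52), with quantile normalization (1.66) and with the replicate block (1.67, limma adjusted p = 0.0295). It was not called with a pseudocount of 1 (1.72), median centring (1.69), eBayes without a trend, no filter or only the brightest 25% of probe sets (1.67 in these 3, adjusted p = 0.0828, 0.0881 and 0.0552), the mean of the gene's probe sets (1.30), any 1 array left out (1.54 to 1.80) or both arrays numbered 1, 2 or 3 left out (1.92, 1.60 and 1.49). The number of members called was 0 in each of those cases. Over all genes limma called 17, and 8 with a pseudocount of 1, 94 with the replicate block, 1 with no filter, 3 in the brightest 25%, 1 or 2 with 1 array left out and 0 with a pair left out (622, 472 and 694 genes at an unadjusted p under 0.05 without pairs 1, 2 and 3).

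Bcl2l11, Bcl2l1 and Bak1 kept their direction throughout, at -1.20 to -0.49, -0.65 to -0.33 and 0.02 to 0.32 with 1 array left out. The sign changed for Mcl1 with median centring (0.0121), without both arrays numbered 2 (0.0215) and with 1 array left out (-0.0820 to 0.0933), and with 1 array left out for Bid (-0.402 to 0.103), Bad (-0.0767 to 0.527), Bbc3 (-0.764 to 0.0372) and Bmf (-0.0469 to 0.315). The median of the members then ranged from -0.0767 to 0.103. In the fit over all probe sets median centring called 1 member probe set. The replicate block changed no other member's call.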
